A study of Mus musculus with 8 samples.

Results

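Genes of brain and tumour cells are read in many droplets that carry the marker genes of immune cells, and 10 of them are described here: Nnat, Mdk, Ctnna2, Sox2ot, Dcc, Dnm3, Sema6d, Csmd2, Nfix and Tshz2. They are 10 of the 33696 genes of the files, found by symbol. They were picked from an earlier comparison of the same libraries, labelled vehicle IgG and mavrilimumab, in classes of immune droplets. Nnat was picked in regulatory T droplets, Ctnna2 and Sox2ot in monocyte or macrophage droplets, and Dnm3, Dcc and Sema6d in neutrophil droplets. Tshz2, Csmd2 and Nfix were picked in B droplets, and Ctnna2 and Mdk in innate lymphoid droplets. The difference between the treatments in those classes is therefore no finding. The question asked of each gene is whether immune droplets hold more of it than free RNA would give.

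The cells came from EP ZFTA-RELA, an ependymoma of mice that carry NestinCreERT2, a tamoxifen-inducible Cre driven in neural progenitors by Nestin, with the Fus1 and RFPTdT alleles, in both groups. At 3 weeks of age the mice had 1 intrathecal injection, of control IgG or of mavrilimumab (5 mg per kg), which blocks GM-CSF receptor alpha, the receptor of a cytokine that drives myeloid cell production. Tumour tissue of mice aged 6 to 8 weeks was pooled within each group, and cells were sorted after staining for CD45 (leukocytes) and Ter119 (erythroid cells). Per the study's methods, the sort kept live CD45-positive cells that lacked Ter119 and that a CD45 antibody given into the blood had not reached, a gate that would leave out neural and tumour cells. Each group has 2 gene expression libraries, made by 5′ droplet sequencing, in which a unique molecular identifier (UMI) tags each captured RNA molecule. Because tumours were pooled, the spread between the 2 libraries of a group may be partly technical, and p-values measure only the spread between these samples.

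A droplet library reads 2 sources of RNA. A droplet with a cell yields that cell's RNA, and every droplet, with or without a cell, also takes up RNA that broken cells released into the suspension. Free RNA reaches all droplets of a library in nearly the same proportions, so a droplet without a cell shows what any cell would receive. A cell that sticks to another, or a fragment of one, brings a second kind of RNA that is not free and that empty droplets do not measure.

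The 10 genes fall into 4 groups by role. Nnat encodes neuronatin, a small membrane protein of developing neurons and endocrine cells, and Mdk encodes midkine, a secreted heparin-binding growth factor. Dcc, the netrin receptor, Sema6d, a transmembrane semaphorin, Ctnna2, the neuronal alpha-catenin that ties cadherins to actin, and Csmd2, a large transmembrane protein with CUB and sushi domains, belong to axon guidance, adhesion and synapses. Dnm3 encodes a dynamin, a GTPase that pinches membrane vesicles and is best known in neurons. Nfix, a nuclear factor I protein, and Tshz2, a teashirt zinc finger protein, are transcription factors, and Sox2ot is a long non-coding RNA whose gene overlaps Sox2. In general knowledge the genes are not all limited to neural cells. Nuclear factor I proteins, such as Nfix, act in blood cell development. Dynamins as a family act in all tissues, which does not place Dnm3 itself in immune cells. The other genes are not taken to be limited to neural cells either.

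The 4 libraries held 24354457 to 148657643 UMIs. Droplets with at least 1000 UMIs and at most 10% mitochondrial UMIs numbered 1171 in vehicle IgG 1, 26825 in vehicle IgG 2, 6412 in mavrilimumab 1 and 5858 in mavrilimumab 2. Empty droplets were barcodes under 100 UMIs, neural or tumour droplets (here neural droplets) held at least 3 UMIs of Map1b, Stmn2 and Vim and none of the leukocyte genes Ptprc, Tyrobp and Cd3e, and T, B, microglia and monocyte droplets were gated on their own marker genes. T droplets numbered 243 to 5288 a library and microglia droplets 237 to 953. B droplets numbered 58 to 355 and monocyte droplets 5 to 116. The gates are not exclusive: 159 of the 355 B droplets of mavrilimumab 2 and 110 of the 295 of mavrilimumab 1 also passed the T gate.

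Some libraries and gates stood apart from their labels. The 3 receptor (TCR) libraries analysed each carry an inner name of the opposite treatment, and of the 2749 barcodes in the one titled mavrilimumab 1, expression library mavrilimumab 2 held 2608 and mavrilimumab 1 held 2. Of the 5659 in the one titled mavrilimumab 2, expression library mavrilimumab 1 held 4867, and of the 193 in the one titled vehicle IgG 1 its own expression library held 187. Each library is therefore called by its label, and no direction between treatments rests on more than the labels. The gated neural droplets of vehicle IgG 1 numbered 20 and held the neural genes Tubb3, Sox2, Ncam1 and Gpm6a at 4.16, 12.5, 20.8 and 162.4 UMIs per 1000000 with Sox11 and Fabp7 at 0, so their label was borne out only in part. These 20 droplets enter the fit of neural droplets and the levels given for other neural and tumour genes. Those of mavrilimumab 1 numbered 10, too few for a fit. Of the 58 B droplets of vehicle IgG 1, 44 were also gated as microglia, and the B genes Ms4a1, Pax5 and Igkc were at 0 there. In the B droplets of the other 3 libraries Pax5 stood at 8.86 to 62.9 UMIs per 1000000. The expression libraries shared 0 to 60 barcodes.

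The free RNA of vehicle IgG 2 and mavrilimumab 2 was rich in the 10 genes and that of the other 2 libraries was poor in them. Levels are given as CPM, the UMIs of a gene per 1000000 UMIs of the class, with 1 tag a molecule, so that they are not divided by gene length. Together the 10 genes made up 127.8 CPM of the empty droplets of vehicle IgG 1 (533 UMIs), 8544 CPM in vehicle IgG 2 (9609 UMIs), 133.3 CPM in mavrilimumab 1 (607 UMIs) and 2556 CPM in mavrilimumab 2 (20053 UMIs). The libraries rich in the genes were thus 1 of each treatment. Nnat was the most abundant in both rich libraries, at 3225 CPM in vehicle IgG 2 and 633.3 CPM in mavrilimumab 2, against 8.63 CPM in vehicle IgG 1 and 10.8 CPM in mavrilimumab 1. Mdk followed the same split, with 966 and 514 CPM in the empty droplets of vehicle IgG 2 and mavrilimumab 2 and 12.9 and 4.61 CPM in those of vehicle IgG 1 and mavrilimumab 1.

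In the 2 poor libraries other genes led. Nfix was highest in the empty droplets of vehicle IgG 1, at 45.6 CPM (exact Poisson 95% interval 39.3 to 52.5), and Sema6d in those of mavrilimumab 1, at 40.2 CPM. Ctnna2 was at 21.1, 329, 1.98 and 67.2 CPM in empty droplets of vehicle IgG 1 and 2 and mavrilimumab 1 and 2, in that order. Dcc was at 7.67, 1239, 7.90 and 202.2 CPM and Csmd2 at 11.7, 369.9, 8.56 and 273.1 CPM, in the same order. Both had their 2 highest levels in the 2 rich libraries. Intervals throughout cover counting error only. The number of droplets with neural RNA differed in the same way, 9444 and 506 neural droplets in the rich libraries against 20 and 10, and the part of those cells in the free RNA was not tested.

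**Figure D1:**
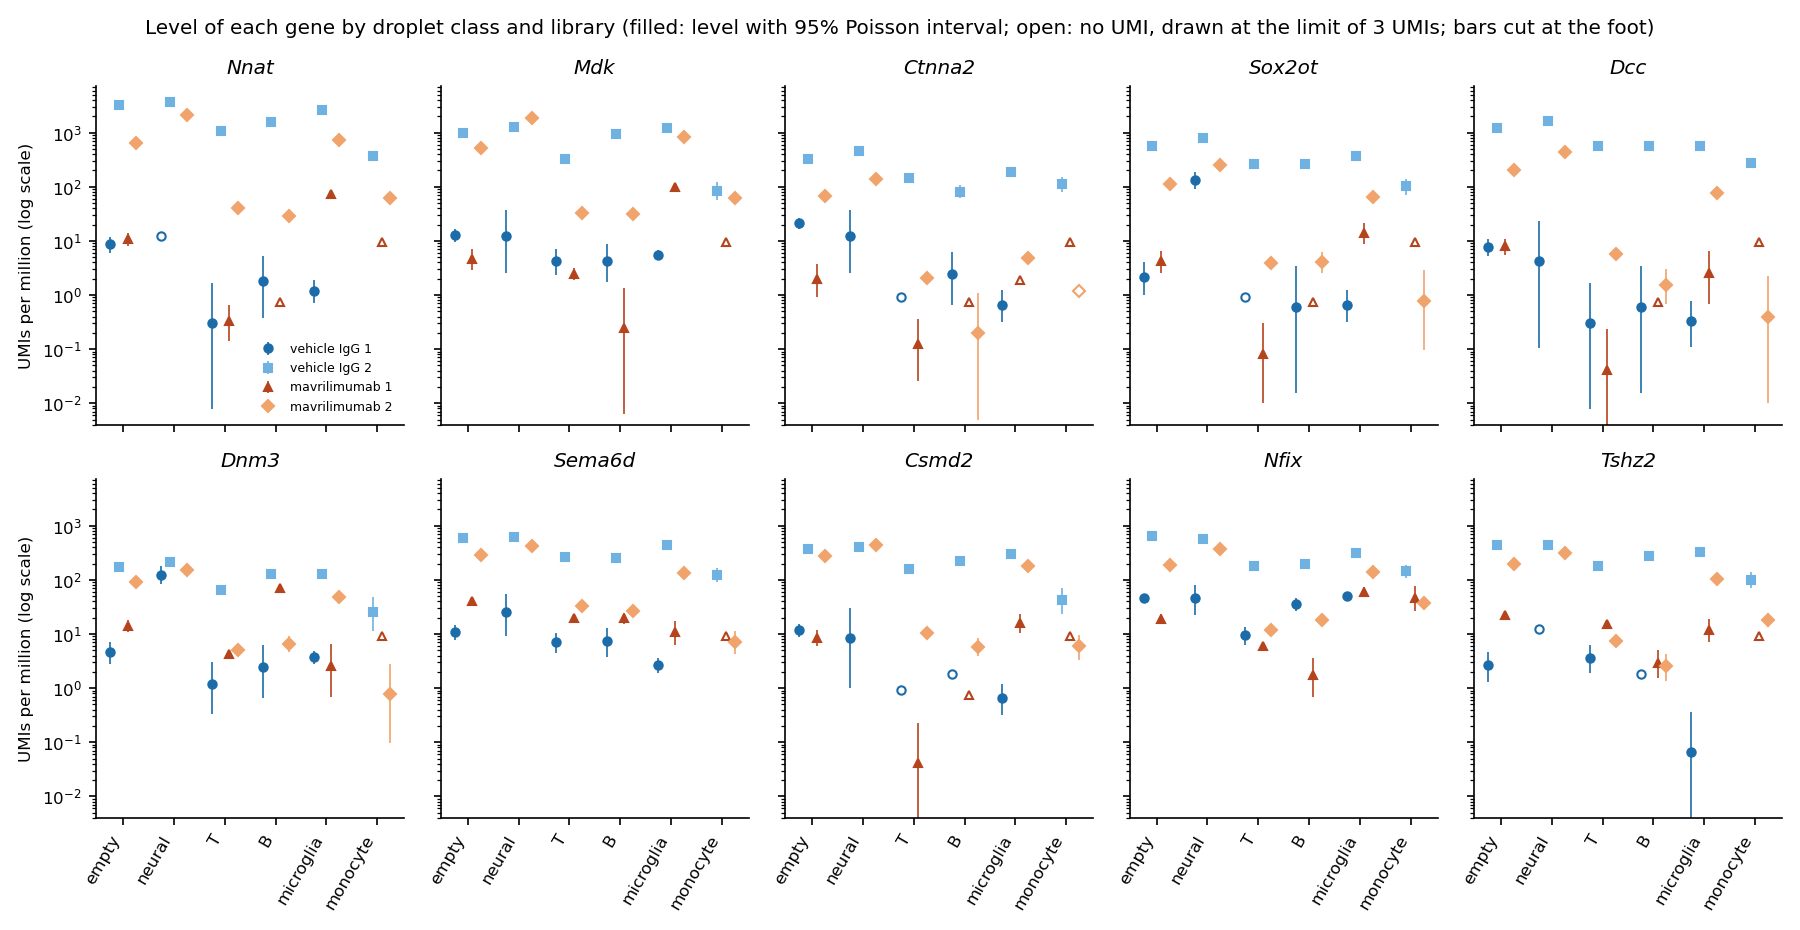
Level of each of the 10 genes in CPM (log axis) by droplet class, 1 point a library, with exact Poisson 95% intervals; points at 0 are drawn at the limit of 3 UMIs, and classes under 20 droplets in a library are not drawn. Vehicle IgG 2 is the highest library in empty droplets for all 10 genes, and the levels in T droplets lie at or under those in empty droplets of the same library except for Tshz2 in vehicle IgG 1.

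Neural droplets held the 10 genes at 10181 CPM in vehicle IgG 2 and 6573 CPM in mavrilimumab 2. Nnat stood at 3763 CPM in vehicle IgG 2 and 2154 CPM in mavrilimumab 2, and Mdk at 1250 and 1885 CPM. The guidance receptor Dcc was at 1672 CPM in the neural droplets of vehicle IgG 2 and at 448 CPM in those of mavrilimumab 2. The lowest of the 10 in these droplets were Dnm3 at 217.1 CPM in vehicle IgG 2 and Ctnna2 at 140.9 CPM in mavrilimumab 2. At least 1 of the 10 genes was seen in 99.4% of the 9444 neural droplets of vehicle IgG 2 and in 96.4% of the 506 of mavrilimumab 2, and 5 or more in 86.8% and 56.1%.

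In vehicle IgG 2 the empty droplets differ in kind from those of the other libraries. Barcodes of 1 to 9 UMIs gave 769410 of their 1124683 UMIs, and the many barcodes of at least 100 and under 200 UMIs (60554, with 9852258 UMIs) are outside the range taken as empty. Against these empty droplets the 10 genes of its neural droplets stood at 0.894 times (Nfix) to 1.37 times (Ctnna2) the empty level, a spread of 1.54-fold between the genes. In mavrilimumab 2 the ratio ran from 1.48 for Sema6d to 3.67 for Mdk. In the fit by edgeR's quasi-likelihood test, with the library as a block and 3 libraries, all 10 log2 fold changes were above 0, from 0.09 ± 0.71 (SE) for Tshz2 to 2.11 ± 1.18 for Sox2ot, with Benjamini-Hochberg adjusted p from 0.605 to 0.965 by edgeR. The median over the 10 was 0.41, and 0.80 with empty droplets of at least 100 and under 200 UMIs. Without mavrilimumab 2, 4 of the 10 were above 0, with a median of −0.07. None of the 10 was called, where the background was 0% called higher (0 of 14410 genes) and 0.854% called lower, with 1303 genes at an unadjusted p under 0.05 and 804 called by DESeq2. That fit includes vehicle IgG 1, whose neural droplets bore out their label only in part.

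By the highest immune list, levels in T droplets lay below the free RNA expectation in nearly every case. The level of free RNA was set per library from genes of other lineages that T cells lack: microglia genes and, where there were enough UMIs, haemoglobin and B genes in T droplets, as a share of their level in empty droplets, taking the list that gave the highest share. These shares were 0.300 in vehicle IgG 1, 0.781 in vehicle IgG 2, 0.894 in mavrilimumab 1 and 0.312 in mavrilimumab 2. The other lists gave 0.0225 (haemoglobin) in vehicle IgG 2 and 0.370 (microglia) in mavrilimumab 1. In mavrilimumab 2 they gave 0.151 (B) and 0.112 (haemoglobin). A gene was counted above free RNA where its lower Poisson bound exceeded the expected UMIs. The expected UMIs were taken as fixed, though some empty counts were small, such as 11 UMIs of Tshz2 in vehicle IgG 1. The rule was run on the 10 genes only, so no share over all genes stands beside the counts of pairs. Over 10 genes and 4 libraries, T droplets had 2 gene and library pairs of 40 above the expectation, 35 below it and 3 neither. The share is a single value per class, so it moves all 10 genes together. It is the highest of the lists, so a gene below the expectation is not shown to be absent from the cells of a class. The median of the lists gave more pairs above in T droplets, and a share of 1 gave fewer.

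By the highest list Nnat lay below the expectation in T droplets of all 4 libraries. Another share came from 41 other neural and tumour genes (the comparison list), of which those with at least 10 UMIs in empty droplets were used. By that share Nnat was at 1.59 times (1.52 to 1.67) in mavrilimumab 2, at 0.890 times (0.875 to 0.904) in vehicle IgG 2, and neither above nor below in the other 2. Its level in T droplets was 0.303 CPM in vehicle IgG 1 (1 UMI), 1057 CPM in vehicle IgG 2 (14393 UMIs), 0.331 CPM in mavrilimumab 1 (8 UMIs) and 40.5 CPM in mavrilimumab 2 (1700 UMIs). The order of the libraries was that of their empty droplets, and the intervals of the 2 poor ones overlapped. As a multiple of the expectation Nnat reached 0.117 in vehicle IgG 1, 0.420 in vehicle IgG 2, 0.0345 in mavrilimumab 1 and 0.205 in mavrilimumab 2. It was seen in 55.7% of the T droplets of vehicle IgG 2 (95% Clopper-Pearson interval 54.2 to 57.3, median 2567 UMIs a droplet) and in 0.151% of those of mavrilimumab 1 (0.0653 to 0.298, median 3862.5 UMIs). Thinned to 1000 UMIs a droplet these shares were 33.1% and 0.0189%. In mavrilimumab 2, 416 of the 1700 Nnat UMIs of T droplets lay in 1 droplet.

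The other genes of neurons and guidance behaved alike in the T droplets of vehicle IgG 2, between 0.279 (Nfix) and 0.470 (Sox2ot) of their empty level, a spread of 1.68-fold. Of the UMIs of the 10 genes in these T droplets, 75.4% lay in the 32.0% of droplets with Map1b or Stmn2, and how much of them was free RNA was not tested. In mavrilimumab 1 the ratios ran from 0.00484 for Csmd2 (1 UMI) to 0.689 for Tshz2 (369 UMIs), a spread of 142-fold. Mavrilimumab 2 lay between these, with 4.22-fold from Dcc (0.0277) to Sema6d (0.117). Ctnna2, Sox2ot and Csmd2 were at 0 in the 243 T droplets of vehicle IgG 1, where the limit of 3 UMIs is 0.909 CPM.

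Sema6d and Tshz2 were the pairs above the expectation in T droplets, both in vehicle IgG 1. Sema6d had 6.97, 268.8, 19.9 and 33.4 CPM in T droplets of vehicle IgG 1 and 2 and mavrilimumab 1 and 2, against 10.8, 585.1, 40.2 and 285.6 CPM in empty droplets. It was 2.16 times the expectation in vehicle IgG 1 (1.37 to 3.24), from 23 UMIs in 9 of 243 droplets, of which the droplet with most held 34.8%. Without that droplet the ratio was 1.41 and no longer above. Tshz2 was 4.60 times the expectation there (2.38 to 8.04), and its 12 UMIs all lay in 1 droplet, so that the ratio without it was 0. In mavrilimumab 1, where T droplets were most numerous, Sema6d was seen in 305 of 5288 droplets and Tshz2 in 209, and both stayed below the expectation, at 0.554 and 0.771. The share there, 0.894, came from the B list, and the B gate overlapped the T gate. The microglia list gave 0.370, and at that share both genes lie above free RNA.

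How high free RNA is set decides the answer in T droplets. The share from the comparison list (such as Tubb3, Lsamp and Sox2) was the median ratio over its genes with at least 10 UMIs in empty droplets. These numbered 23, 37, 18 and 40 of the 41 in vehicle IgG 1 and 2 and mavrilimumab 1 and 2. That share was lower than the share from the immune lists, 0.0111, 0.369, 0.0271 and 0.0402 in the same order, and 21 of 40 pairs in T droplets then lay above it. Sema6d was above it in all 4 libraries, at 58.3, 1.25, 18.2 and 2.91 times, and Tshz2 at 124 times in vehicle IgG 1 and 25.4 times in mavrilimumab 1. In vehicle IgG 1 the ratios rest on expectations of 0.395 UMIs (Sema6d) and 0.0965 UMIs (Tshz2), and all Tshz2 UMIs there lay in the droplet named above. Dnm3, Nfix and Mdk were above it in vehicle IgG 1, mavrilimumab 1 and mavrilimumab 2. With the neural list the genes are measured against RNA of like origin, and with the immune lists against the largest share of foreign RNA that T droplets carried. This alternative was chosen after seeing the data.

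In the fit of T against empty droplets over 4 libraries, all 10 genes had a lower level in T droplets, by 1.49 ± 0.46 (SE, log2) for Sema6d to 4.22 ± 1.04 for Csmd2. The smallest adjusted p by edgeR was 0.0593, for Nnat (−3.61 ± 0.68) and Nfix (−2.43 ± 0.45), and the largest was 0.265, for Tshz2. None of the 10 was called, at a background of 0% of 13188 genes in either direction. At an unadjusted p under 0.05 there were 4327 genes, and DESeq2 called 3705 genes and 9 of the 10, with 17.8% of all genes and 31 of 33 comparison genes called lower. Without a filter on low counts 8 of the 10 were called, beside 8.71% of 25672 genes and 35 of 41 comparison genes called lower. Without vehicle IgG 2 there were 6, beside 7.34% of 12844 genes and 20 of 25 comparison genes, and without droplets that held Map1b or Stmn2 also 6, beside 8.56% of 13043 genes and 22 of 32. The latter setting lowers neural RNA in T droplets by its own selection. Of the 33 tested genes of the comparison list none was called, with a median log2 fold change of −3.44 beside −3.02 for the 10 and −0.12 for all genes tested.

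**Figure D2:**
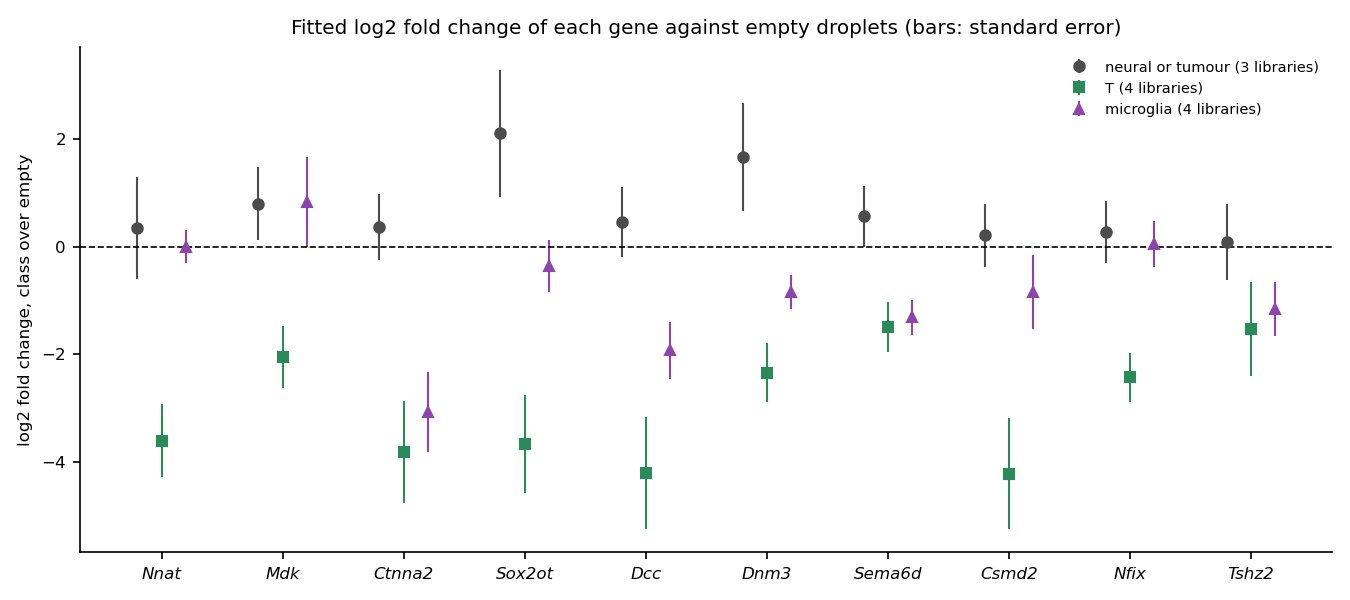
Fitted log2 fold change of each gene against empty droplets (vertical axis, edgeR, bars show the standard error) in neural droplets of 3 libraries and in T and microglia droplets of 4 libraries. All 10 genes lie below 0 in T droplets and above 0 in neural droplets (4 of 10 without mavrilimumab 2), and Ctnna2 at −3.08 in microglia droplets is the only value called.

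In B droplets, with free RNA set by the highest list, 1 of 40 pairs lay above the expectation, 35 below and 4 neither. The count includes the 58 droplets of vehicle IgG 1, of which 44 also passed the microglia gate and 1 passed the B gate alone. They held no UMI of Ms4a1, Pax5 or Igkc, so their pairs do not describe B cells. The share from that list was 3.21, 2.16 and 1.78 in vehicle IgG 1, vehicle IgG 2 and mavrilimumab 2 and was held at 1, so that the expectation is the empty level itself there. These shares came from T or microglia genes, whose gates overlap the B gate. Other settings gave more pairs above: 20 with the share from the comparison list, 7 with empty droplets of 20 to 99 UMIs, and 3 each with the median of the lists and with droplets of 1 immune gate only. Tshz2, Csmd2 and Nfix, the genes picked in B droplets, were at 0, 277.7, 2.95 and 2.53 CPM (Tshz2), at 0, 222.5, 0 and 5.84 CPM (Csmd2) and at 35.2, 193.3, 1.72 and 18.1 CPM (Nfix) in vehicle IgG 1 and 2 and mavrilimumab 1 and 2. Vehicle IgG 2 was the highest library for each, and since these genes were picked in B droplets the values are a description only. The 58 UMIs of Nfix in vehicle IgG 1 come from droplets of which most were also gated as microglia.

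The pair above the expectation was Dnm3 in mavrilimumab 1. Its level there was 2.43 CPM in vehicle IgG 1 (4 UMIs), 130.4 CPM in vehicle IgG 2 (85 UMIs), 69.6 CPM in mavrilimumab 1 (283 UMIs) and 6.62 CPM in mavrilimumab 2 (34 UMIs). Empty droplets of mavrilimumab 1 held 14.1 CPM, and Dnm3 was 8.03 times the expectation (7.13 to 9.03) and 4.96 times the empty level itself. The UMIs were spread evenly: 149 of 295 B droplets held at least 1 (50.5%, 44.7 to 56.4), and the droplet with most held 2.12% of them. T droplets of the same library held Dnm3 in 54 of 5288 (1.02%, 0.768 to 1.33). B droplets were deeper, with a median of 14205 UMIs against 3862.5, and after thinning each droplet to 1000 UMIs the shares were 6.44% (3.92 to 9.88) and 0.17% (0.0779 to 0.323).

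That level of Dnm3 was not matched in mavrilimumab 2, where 11 of 355 B droplets held it, 82.4% of the UMIs lay in 5 droplets and the ratio to the expectation, held at the empty level, was 0.0722 (0.0500 to 0.101). By the share from the comparison list Dnm3 was above free RNA in the B droplets of mavrilimumab 2, at 4.24 times (2.94 to 5.92), and of vehicle IgG 2, at 2.07 times (1.65 to 2.56). Of the 119 B droplets of vehicle IgG 2, however, 27 also passed the neural gate, and these held 69.8% of the 10 genes' UMIs. In the B droplets of mavrilimumab 1 Dnm3 was at 165.6 times (146.8 to 186.0), against an expectation of 1.71 UMIs. The B droplets of mavrilimumab 1 and mavrilimumab 2 differed in their B genes too. Igkc, the kappa light chain that plasma cells make in quantity, was at 18883 CPM in mavrilimumab 1 and 189 CPM in mavrilimumab 2, while Pax5 and Ebf1, factors of B cell identity, were at 8.86 and 20.7 CPM in mavrilimumab 1 and at 62.9 and 302 CPM in mavrilimumab 2. Whether Dnm3 goes with that difference was not tested. In the B droplets of mavrilimumab 1 Nnat, Ctnna2, Sox2ot, Dcc and Csmd2 were at 0 of 4064323 UMIs, where 3 UMIs would be 0.738 CPM. Sema6d had 79 UMIs there, 19.4 CPM or 0.784 of the expectation. The ratio of Dnm3 in mavrilimumab 1 was 11.96 by the median of the lists and 26.6 with empty droplets of at least 100 and under 200 UMIs, and it lay between 4.96 and 9.54 under a share of 1, with droplets of 1 immune gate only (203 UMIs in 178 droplets), with Ptprc, in the droplets at or under the median depth and without its highest droplet.

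**Figure D3:**
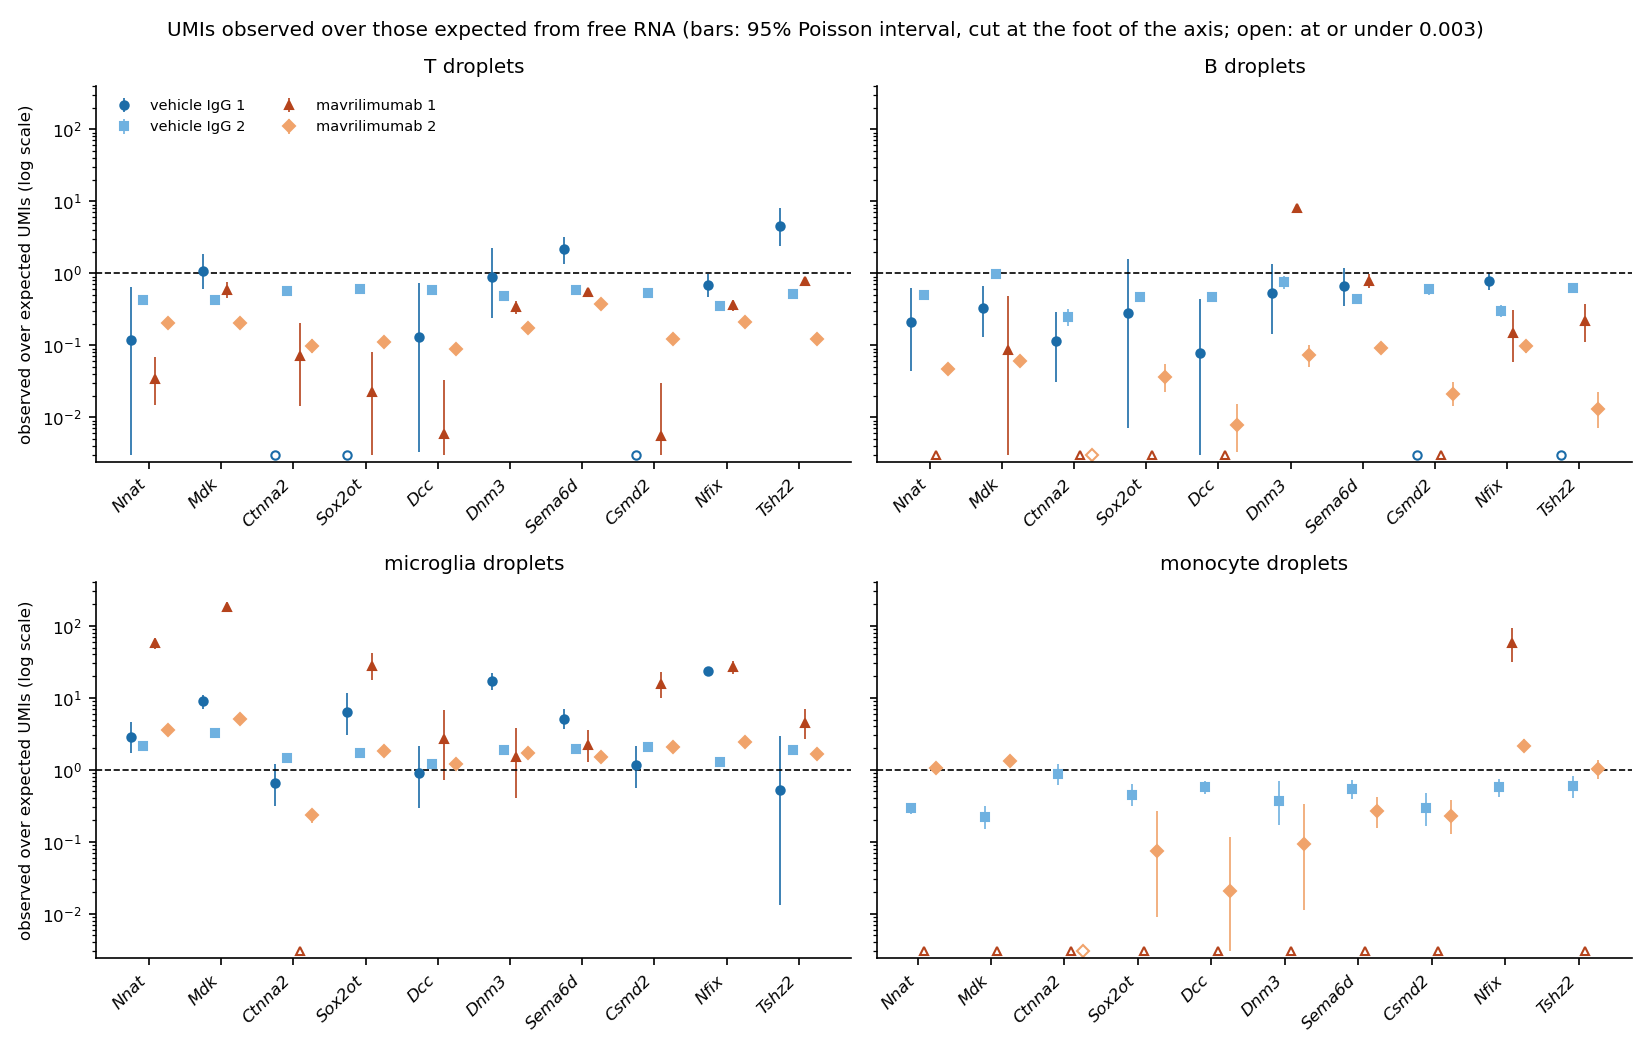
Observed UMIs over those expected from free RNA (log scale) for each gene in T, B, microglia and monocyte droplets of each library. Bars are 95% Poisson intervals and open points lie at or under the foot of the axis. Of the 38 pairs whose bar lies wholly above the dashed line at 1, microglia droplets hold 32, and Dnm3 in B droplets of mavrilimumab 1 stands at 8.03.

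In microglia droplets 32 of 40 pairs lay above the expectation by the highest list, with 1 below and 7 neither. By the share from the comparison list 20 did, beside 21 in T and 20 in B droplets. That share was 0.220, 0.608, 2.45 and 0.484 in the microglia droplets of vehicle IgG 1 and 2 and mavrilimumab 1 and 2, and it was not held at 1. By the highest list the free RNA shares there were 0.0475, 0.387, 0.120 and 0.314 in vehicle IgG 1 and 2 and mavrilimumab 1 and 2. A gene at its empty level lies above an expectation set at such shares, so the count of 32 alone does not set the 10 genes apart. Together the 10 genes were at 66.5, 6487, 293.8 and 2285 CPM, or 0.520, 0.759, 2.20 and 0.894 times the level in empty droplets. In the 2 rich libraries most of this RNA lay in droplets with neuronal RNA. Of the microglia droplets of mavrilimumab 2, 16.8% held a UMI of the neuronal genes Map1b or Stmn2, and those held 36.1% of all UMIs and 95.6% of the UMIs of the 10 genes. The same values for vehicle IgG 2 were 54.6%, 71.7% and 92.3%. In vehicle IgG 1 droplets of that kind held 8.64% of the 10 genes' UMIs, and in mavrilimumab 1 17.7%.

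Without droplets that held Map1b or Stmn2, 12 of 40 pairs in microglia droplets lay above the expectation. That selection itself takes out neural RNA, so a lower count was set by it in part. Leaving out the 202 microglia droplets of vehicle IgG 2, the 120 of mavrilimumab 2 and the few of the others that also passed the neural gate gave 11, and keeping only those with a UMI of Ptprc, which encodes CD45, gave 8. With Ptprc the pairs above were Nnat, Mdk, Sox2ot, Dnm3, Sema6d and Nfix in vehicle IgG 1 and Mdk and Nfix in mavrilimumab 1. Mdk in mavrilimumab 1 rested on few droplets, since 95% of its 159 UMIs in microglia droplets lay in 5 of 237. Nnat there had 117 UMIs, all in 5 droplets, 59 of them in 1.

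Nfix was spread through the microglia droplets of vehicle IgG 1. In vehicle IgG 2 other genes were spread as well, since 49.9% of microglia droplets held 5 or more of the 10. Its level was 51.1 CPM in vehicle IgG 1 (47.6 to 54.8, 774 UMIs), 315.9 in vehicle IgG 2, 60.9 in mavrilimumab 1 (49.3 to 74.4, 96 UMIs) and 141.8 in mavrilimumab 2. Against the expectation it stood at 23.6 (22.0 to 25.3), 1.27, 26.8 (21.7 to 32.7) and 2.45. In vehicle IgG 1, 384 of 756 microglia droplets held it (50.8%, 47.2 to 54.4, median 19257 UMIs), and 8.64% of the T droplets did (5.43 to 12.9, median 13254 UMIs). After thinning to 1000 UMIs these were 6.08% (4.49 to 8.03) and 1.23% (0.255 to 3.57). In mavrilimumab 1 it was in 52 of 237 microglia droplets (21.9%) and in 2.57% of T droplets. The ratios of vehicle IgG 1 and mavrilimumab 1 were above 1 in each alternative that gave a value, but their size moved with the share: at a share of 1 they were 1.12 (1.04 to 1.20, with the error of the empty level itself not counted) and 3.23 (2.61 to 3.94), and by the comparison list 5.09 (4.74 to 5.46) and 1.31 (1.06 to 1.60), the latter against an expectation above the empty level. The ratios of the rich libraries fell below 1 without droplets that held Map1b or Stmn2, to 0.164 in vehicle IgG 2 and 0.480 in mavrilimumab 2. Those 2 genes are neural RNA too, so this fall was set in part by the selection and does not show the source of Nfix.

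**Figure D4:**
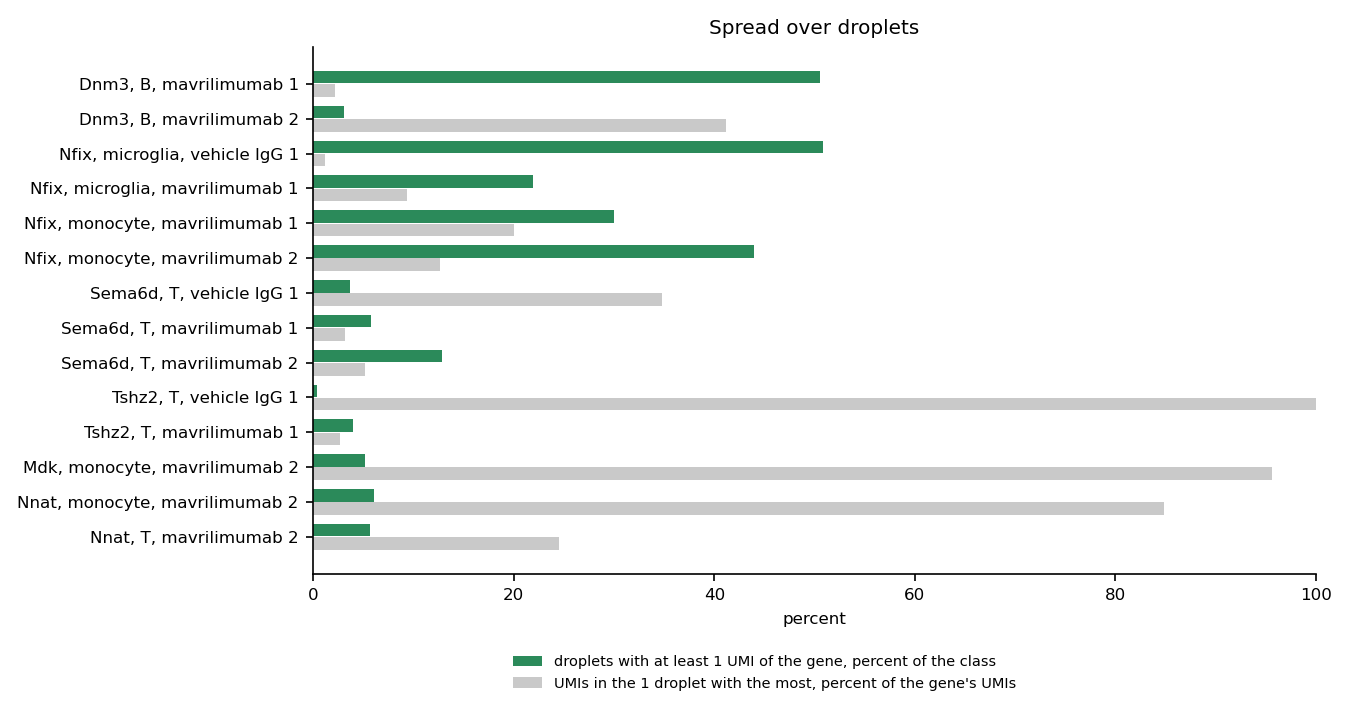
For pairs of a gene with a class and library, chosen after their values were seen, green bars give the percent of droplets with at least 1 UMI and grey bars the percent of the gene's UMIs in the droplet with the most. Dnm3 in B droplets of mavrilimumab 1 (50.5% of droplets) and Nfix in microglia droplets of vehicle IgG 1 (50.8%) are widely spread, whereas Tshz2 in T droplets of vehicle IgG 1 and Mdk in monocyte droplets of mavrilimumab 2 rest on 1 droplet.

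Against empty droplets over 4 libraries, microglia droplets held less Ctnna2, by 3.08 ± 0.75 on the log2 scale (edgeR adjusted p = 0.0482), the only one of the 10 called. The background was 4.92% of 13366 genes called lower and 3.88% called higher, so that 1 of 10 called lower stood near it. The call was lost under TMM scaling, with other cutoffs for empty droplets and without mavrilimumab 1 or mavrilimumab 2. Sema6d (−1.31 ± 0.33, edgeR adjusted p = 0.0525) and Dcc (−1.93 ± 0.53, edgeR adjusted p = 0.0639) missed the threshold. The estimates for Nnat (−0.00 ± 0.31) and Nfix (0.05 ± 0.43) were near 0, and that for Mdk was 0.83 ± 0.84. Those for Nfix and Mdk turned below 0 without Map1b or Stmn2, outside the neural gate and with Ptprc. With Ptprc, 8 of the 10 were called lower, beside 10.3% of 12814 genes and 20 of 31 genes of the comparison list. Fewer were called lower in other settings: 6 outside the neural gate (8.04% of all genes), 5 without Map1b or Stmn2 (5.72%), 4 without a filter on low counts (6.37%), 3 with DESeq2 (8.7%) and 2 without vehicle IgG 2 (4.29%). Leaving out droplets with Map1b or Stmn2, or in the neural gate, lowers neural RNA by the selection itself. Of 36 tested genes of the comparison list 4 were called lower, Dcx, L1cam, Sox6 and Mt3, with a median of −0.90 over the list beside −0.85 for the 10 and −0.07 for all genes.

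Monocyte droplets were few, 51 in vehicle IgG 2, 40 in mavrilimumab 1 and 116 in mavrilimumab 2, and the 5 of vehicle IgG 1 were left out. Of 30 pairs 3 lay above the expectation, 15 below and 12 neither. Nfix accounted for 2 of the 3. It was at 143.4 CPM in vehicle IgG 2, 46.7 CPM in mavrilimumab 1 (15 UMIs in 12 of 40 droplets) and 37.5 CPM in mavrilimumab 2 (95 UMIs in 51 of 116 droplets). Its ratios were 0.570, 56.9 (31.9 to 93.9) and 2.17 (1.76 to 2.65), and where free RNA was set at the empty level the latter 2 fell to 2.47 (1.39 to 4.08) and 0.203. In mavrilimumab 1 Nfix was the only one of the 10 seen, the other 9 being at 0 of 320998 UMIs, where 3 UMIs would be 9.35 CPM and the exact Poisson 95% interval reaches 11.5 CPM.

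The remaining pair was Mdk in mavrilimumab 2, at 1.30 times the expectation (1.11 to 1.52), where 152 of 159 UMIs lay in 1 droplet and the ratio without it was 0.0592. Nnat was alike in that library, with 134 of 158 UMIs in 1 droplet. Ctnna2 and Sox2ot, the genes picked in monocyte or macrophage droplets, were at 112.4 and 101.2 CPM in vehicle IgG 2, both at 0 in mavrilimumab 1, and at 0 and 0.789 CPM in mavrilimumab 2. Their ratios to the expectation in vehicle IgG 2 were 0.875 (0.625 to 1.19) for Ctnna2 and 0.453 (0.317 to 0.626) for Sox2ot. By the highest list neither lay above free RNA in any of the 3 libraries. By the share from the comparison list Ctnna2 was above it in vehicle IgG 2, at 1.57 times (1.12 to 2.13), and by the median of the lists at 1.53 times (1.09 to 2.08). Since Ctnna2 and Sox2ot were picked by the contrast of treatments in such droplets, their values here are a description only.

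Over T, B and monocyte droplets together, 6 of 110 pairs, from 5 genes, lay above the expectation, and over all 4 classes 38 of 150. The rule was run on the 10 genes only, so whether these counts differ from those of other genes was not tested. The counts include Tshz2, Csmd2 and Nfix in B droplets and Ctnna2 and Sox2ot in monocyte droplets, where these genes were picked. T droplets also hold the regulatory T droplets in which Nnat was picked. RNA of the 10 genes gathered in droplets with Map1b or Stmn2 in T, B and monocyte droplets of the rich libraries as well. In T droplets of mavrilimumab 2, 4.46% of the droplets held Map1b or Stmn2 and those held 65.5% of the 10 genes' UMIs, and those of vehicle IgG 2 are given above. For B droplets the values were 6.76% and 55.9% in mavrilimumab 2 and 49.6% and 95.9% in vehicle IgG 2. In the T droplets of vehicle IgG 1 and mavrilimumab 1 such droplets held 1.16% and 0.939% of the genes' UMIs, beside 5.80% and 0.914% of all UMIs.

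**Figure D5:**
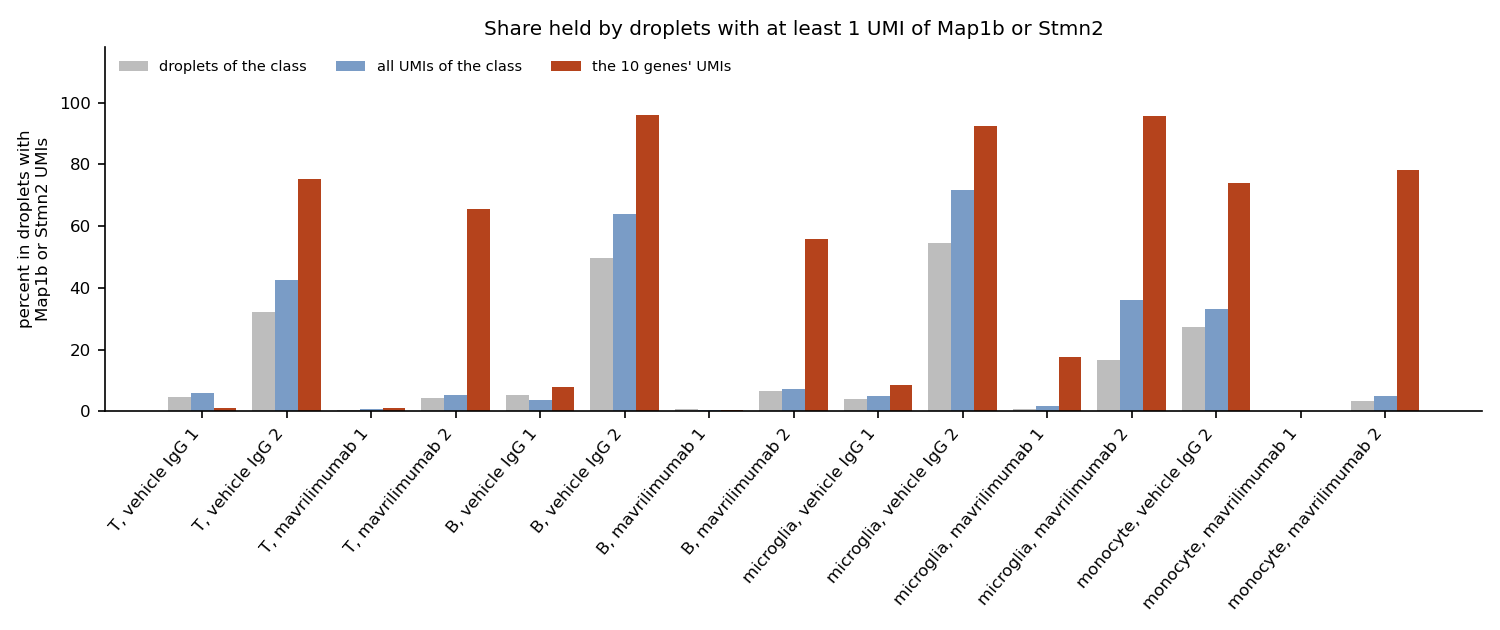
Percent of droplets, of all UMIs and of the 10 genes' UMIs that belong to droplets with at least 1 UMI of Map1b or Stmn2, by class and library. In vehicle IgG 2 and mavrilimumab 2 the genes' UMIs (55.9% to 95.9%) exceed the droplets' share of all UMIs in all 4 classes, and in microglia droplets of mavrilimumab 1 they hold 17.7% beside 1.71% of all UMIs.

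The share of droplets with any of the 10 genes was highest in vehicle IgG 2 in each immune class. T droplets with at least 1 of them made up 18.5% in vehicle IgG 1, 82.4% in vehicle IgG 2, 13.8% in mavrilimumab 1 and 33.6% in mavrilimumab 2. Thinned to 1000 UMIs these were 3.70%, 58.1%, 4.41% and 6.38%. Microglia droplets gave 7.67%, 74.1%, 8.02% and 22.8% after thinning, and B droplets 5.17%, 58.8%, 9.15% and 3.94%.

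In the classes in which the genes were picked, values are a description only. Regulatory T droplets numbered 18, 28, 832 and 105 in vehicle IgG 1 and 2 and mavrilimumab 1 and 2. Nnat was at 0, 637.4, 0.797 and 3.54 CPM in them, under its level in empty droplets of the same library in vehicle IgG 2 and mavrilimumab 1 and 2. The 18 droplets of vehicle IgG 1 held 286509 UMIs, too few to place 0 under the empty level of 8.63 CPM. Tshz2 was at 37.2 CPM in the regulatory T droplets of mavrilimumab 1 (140 UMIs in 87 of 832 droplets), 1.68 times the empty level, while all T droplets of that library stood at 15.3 CPM. In the 105 regulatory T droplets of mavrilimumab 2 Tshz2 was at 0.0596 times its empty level. Neutrophil droplets numbered 10, 80, 20 and 92, and Dnm3 was at 12.6 (1 UMI), 689.5, 0 and 1.25 CPM (1 UMI) there. The 162 UMIs of vehicle IgG 2 were 3.98 times the empty level, and 81 of them lay in 1 droplet. Dcc was at 293.7 CPM and Sema6d at 306.5 CPM in neutrophil droplets of vehicle IgG 2, 0.237 and 0.524 times the empty level. Innate lymphoid droplets were not rebuilt here.

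Between the labelled treatments the 4 classes with enough droplets were fitted by edgeR's quasi-likelihood test, and none of the 10 was called. In empty droplets the fitted log2 fold changes of mavrilimumab over vehicle IgG had a median of −1.25 over the 10, with 0% of 13992 genes called (341 genes at an unadjusted p under 0.05, and 30 called by DESeq2). In T and microglia droplets the values are a description only, since T droplets hold the regulatory T droplets in which Nnat was picked and microglia droplets may hold some of the macrophage droplets in which Ctnna2 and Sox2ot were. The medians there were −3.51 and −1.44, and 0% of genes were called (637 and 133 genes at an unadjusted p under 0.05, and 350 and 2 called by DESeq2). The fit in neural droplets says nothing of the 10 genes, since 1 of its 3 libraries is the only one of mavrilimumab and another is the 20 droplets of vehicle IgG 1, and 0.0253% of 15787 genes were called. B, monocyte, regulatory T and neutrophil droplets were not fitted. Without vehicle IgG 2 the 3 medians became 3.52 in empty, 2.81 in T and 6.06 in microglia droplets. On simulated counts with 4-fold changes these 4 fits recovered 0% to 3% of the changed genes, so that a gene not called there is not shown to be unchanged.

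The genes most like the 10 in their pattern were found by Pearson's r of log2(CPM + 1) with that of the UMIs of the 10 added up, over 22 sums of class and library. They were Nxph3 (0.988), Ppp2r2b (0.987), Asic2 (0.985), Sox2 (0.984) and Zfp521 (0.983). The sums share libraries and depth, and the values are a description. Among the 10 themselves that r ran from 0.849 for Dnm3 and 0.881 for Nfix to 0.973 for Csmd2. Dnm3 and Nfix were the least alike. The sums include the B and microglia droplets in which their UMIs were spread out, so this is no separate observation. Of the 41 genes of the comparison list the highest in neural droplets were Lsamp, at 179.1, 2607 and 1803 CPM in vehicle IgG 1, vehicle IgG 2 and mavrilimumab 2, and Mt3, at 1953, 484.3 and 378.8 CPM. The lowest were L1cam, at 0, 7.05 and 3.23 CPM, and Snhg11, at 0, 1.21 and 0.430 CPM.

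Most of the 10 genes are long, a property that the choice did not use. By RefSeq gene models of mouse build GRCm38.p6, 8 of the 10 span at least 90 kb, from 96.5 kb for Nfix on chromosome 8 to 1098 kb for Ctnna2 on chromosome 6 and for Dcc on chromosome 18. Nnat and Mdk, both on chromosome 2, span 2.45 and 2.49 kb. The median span of the 10 was 468 kb, beside 217 kb for the 41 genes of the comparison list, of which 61.0% span at least 90 kb. Over the 25522 genes of the files that matched a model the median was 16.4 kb and 11.5% span that length.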

How the data were processed

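The 4 gene expression libraries were deposited as unfiltered matrices of UMI counts per gene and barcode, which the authors made with Cell Ranger. The file headers give version 9.0.1, while the submitters' processing notes name Cell Ranger 7 and 7.1.0, Scanpy 1.8.2 and the build mm10. How these differ in role is not given in the sources used here. Deposited TCR contig files hold counts of UMIs per contig, and only their barcodes and sample names were used. The members, gates and gene lists were chosen with earlier results of these data known.

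Droplet classes followed the gates stated in the report. Doublets were not removed, and no caller was run. Regulatory T and neutrophil droplets were gated by marker genes. UMIs were summed per class and library, and the library was the replicate. Expected free RNA was the class total times the gene's share in empty droplets (under 100 UMIs) times the class's free RNA share, which was the highest over lists of genes of other lineages with at least 50 UMIs in empty droplets. That share was held at 1 at most, a limit added after seeing the data, and the alternative share from the comparison list was not. Exact Poisson and Clopper-Pearson 95% intervals cover counting error only. For ratios to the expectation they cover only the UMIs of the class, with the expected UMIs taken as fixed, so they are too narrow. Thinning drew 1000 UMIs a droplet. Classes under 20 droplets in a library were left out of fits and of the free RNA count.

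Class sums were compared by the quasi-likelihood test of edgeR 4.0.16 (limma 3.58.1, R 4.3.3) over all genes left by filterByExpr, at a Benjamini-Hochberg adjusted p of 0.05. Class against empty droplets had library as a block. It was scaled by total UMIs, with TMM as an alternative, and the comparison of treatments by TMM with total UMIs as an alternative. DESeq2 1.42.0 was an alternative, as were other filters, other definitions of empty droplets and of each class, and leaving out each library. A chance test on 2 libraries against 2 has few splits and was not run. On simulated counts for 200 genes changed 4-fold, the fit of T against empty droplets (13188 genes) recovered 87%, that of microglia (13366 genes) 97% and that of neural droplets (14410 genes) 5%. The simulation gave each gene 1 mean for all libraries and all genes 1 dispersion, unlike the data, so these shares do not measure the power of the real fits. The real T fit called 0 genes, with 4327 at an unadjusted p under 0.05 by edgeR. Sums, intervals and plots were made with scipy 1.17.1, numpy 2.4.6, pandas 2.3.3 and matplotlib 3.10.9 in Python 3.11.15.

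Genes were named by rule: the 10 members in every class, the 2 highest and 2 lowest of the comparison list in neural droplets, and the 5 genes most like the members. Other named genes are markers or were chosen after their values were seen. Values of some marker genes are not reported here.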

Additional observations from a re-analysis of the deposited data

Results flagged for a closer look

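Droplets outside the compared classes held more of the 10 genes than empty droplets of the same library, with exact Poisson 95% intervals that did not overlap, in 8 of 12 cases, which is why they are listed. Other genes were not counted in this way. The other 4 were droplets of at least 100 and under 1000 UMIs and droplets that passed none of the gates, in vehicle IgG 2 (0.921 and 1.01 times the empty level) and mavrilimumab 2 (0.910 and 0.484 times). Droplets of at least 100 and under 1000 UMIs stood at 2.15 times the empty level in vehicle IgG 1 (2536 droplets) and at 1.57 times in mavrilimumab 1 (3623 droplets). Droplets of at least 1000 UMIs with over 10% mitochondrial UMIs stood at 8.34 times in vehicle IgG 1 (44 droplets), 1.05 times in vehicle IgG 2 (2033 droplets), 18.6 times in mavrilimumab 1 (12 droplets) and 2.01 times in mavrilimumab 2 (296 droplets). Droplets that passed none of the gates stood at 2.67 times in vehicle IgG 1 (148 droplets) and at 1.54 times in mavrilimumab 1 (675 droplets). The levels behind the highest of these were 2474 CPM in mavrilimumab 1 (exact Poisson 95% interval 1914 to 3148) and 1066 CPM in vehicle IgG 1 (871.1 to 1292).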

How the results depend on the processing

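The count of gene and library pairs above free RNA, over all classes, moved most with how free RNA was set, and the cause was not tested. In microglia droplets, which droplets were kept moved it about as far. The median of the lists gave 7 in T, 3 in B and 6 in monocyte droplets. A share of 1 gave 0 in T, 9 in microglia and 1 in monocyte droplets, 11 in all, and the ratio then was 0.646 for Sema6d in T droplets of vehicle IgG 1, 0.122 for Mdk and 0.203 for Nfix in monocyte droplets of mavrilimumab 2, and 0.491 and 0.768 for Nfix in microglia droplets of vehicle IgG 2 and mavrilimumab 2. Empty droplets of 20 to 99 UMIs gave 7 in B droplets and no value for microglia and monocytes of vehicle IgG 2, where the lists had too few UMIs. Empty droplets of at least 100 and under 200 UMIs gave 9 in T, 3 in B and 19 in microglia droplets, with no value for microglia of vehicle IgG 1 for the same reason, and with 0.476 for Nfix in microglia of vehicle IgG 2. The share from the comparison list gave 21 in T, 20 in B, 20 in microglia and 6 in monocyte droplets, 67 in all, of which Nfix in monocytes of mavrilimumab 1 is no comparison, since that share was 0 there, with 0.807 for that value of Nfix.

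Which droplets were kept mattered too, and leaving out those with Map1b or Stmn2 lowers neural RNA by the selection itself. Droplets of 1 immune gate only gave 5 in T, 3 in B and 5 in monocyte droplets. Those without Map1b and Stmn2 gave 12 in microglia and 17 in all, with 0.164 and 0.480 for Nfix in microglia of vehicle IgG 2 and mavrilimumab 2 and 0.0421 for Mdk in monocytes of mavrilimumab 2. Droplets at or under the median UMIs gave 4 in T, 9 in microglia and 16 in all, with 0 for Tshz2 in T droplets of vehicle IgG 1, 0.109 for that value of Mdk and 0.524 for Nfix in vehicle IgG 2. Those outside the neural gate gave 11 in microglia and 17 in all (Nfix 0.45 and 0.766 in vehicle IgG 2 and mavrilimumab 2), and those with Ptprc 8 and 14 (Nfix 0.279 and 0.636). Without the droplet with the most UMIs of the gene, T droplets had 0, Tshz2 was at 0 in vehicle IgG 1 and Mdk at 0.0592 in mavrilimumab 2. Leaving out each library gave 0 to 2 in T, 0 to 1 in B and 1 to 3 in monocyte droplets.

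In the fits against empty droplets, neural droplets had 123 genes called, and 0 under TMM, 1511 without a filter, 804 with DESeq2, 0 with both other ranges of empty droplets and 8 to 786 leaving out a library. Without mavrilimumab 2 the log2 fold change turned for Nnat (−0.85 to 0.99 over libraries left out), Ctnna2 (−0.086 to 0.76), Dcc (−0.061 to 0.79), Csmd2 (−0.12 to 0.43), Nfix (−0.089 to 0.52) and Tshz2 (−0.53 to 0.34). T droplets had 2542 genes and 8 of the 10 called without a filter, 3705 and 9 with DESeq2, 1140 and 6 without Map1b or Stmn2, and 0 to 948 and 0 to 6 leaving out a library. Microglia had 1177 genes called, 2819 without a filter, 2327 with DESeq2, 288 with empty droplets of at least 100 and under 200 UMIs, 2030 with Ptprc and 0 to 927 leaving out a library. Of the 10 genes, 0 were called in microglia under TMM and with both other ranges of empty droplets, 4 without a filter, 3 with DESeq2, 5 without Map1b or Stmn2, 6 outside the neural gate, 8 with Ptprc and 0 to 2 leaving out a library. Values near 0 turned: Nnat was 0.054 under TMM, 0.016 without a filter, 0.022 with DESeq2 and −0.81 to 0.76 leaving out a library, and Csmd2 was 0.18 with empty droplets of at least 100 and under 200 UMIs. Mdk was −0.99, −0.38 and −1.25 and Nfix −0.80, −0.46 and −0.61 without Map1b or Stmn2, outside the neural gate and with Ptprc, and −0.026 to 1.53 (Mdk) and −0.42 to 0.43 (Nfix) leaving out a library.

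Between treatments, DESeq2 called 30 genes in empty, 2 in neural, 350 in T and 2 in microglia droplets, and neural droplets had 0 called without scaling factors and 179 without a filter. Leaving out a library moved the median of the 10 from −5.10 to 3.52 in empty, from −7.51 to 2.81 in T and from −3.78 to 6.06 in microglia droplets. With the shared replicate number as a block, the medians were −1.03, −2.99 and 0.20 in the same order and no gene was called. Deviations of same-numbered libraries correlated at r of 0.642, 0.640 and 0.746 in these classes, with only 2 pairs, so the numbers are not shown to pair the samples. Neural droplets allowed no block and no fit with a library left out. Over all alternatives, 135 counts stayed within 1.5-fold of the main value or at 0 with it, and 72 moved further. Of the single values, 380 kept their side and any call, and 43 turned to the other side. A further 52 gained a call and 9 became weaker. Counting error is widest in vehicle IgG 1 and mavrilimumab 1, where the genes' levels are low and several had under 10 UMIs in a class.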
